A study of Mus musculus with 333 samples.

Results

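Endothelial cells line the brain's blood vessels and form the blood-brain barrier, and microglia are the resident macrophages of the brain tissue. Their transcriptomes were compared in the visual cortex of adult wild-type mice, as 23 single cells that the submitters labelled Endothelial against 9 that they labelled Microglia, 32 of the 62 cells of adult visual cortex and of 333 cells in the whole series. The label Microglia was on 11 adult cells, of which cells 1 and 6 were left out, selected on these measured values: their libraries were nearly identical to each other (Pearson r of 0.994 across genes, as a measure of closeness only) and carried B cell genes, with 0.876 and 1.70 CPM of the 18 microglia identity markers described below. All mice had the wild-type genotype, and the sources used here name no strain, sex or exact adult age. Cells had been enriched by FACS with a gate that is not stated, captured on a Fluidigm C1 device, and sequenced as SMARTer and Nextera XT libraries of polyA RNA. Each library is 1 cell. The series' design names 5 mice per stage, but no label ties a cell to a mouse, so each cell type is 1 sample here, and the labels may have been set from these same counts. The values below are therefore descriptions, with no test between the cell types.

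Brain endothelial cells seal the vessel wall with claudin-based tight junctions, keep vesicle traffic low, and feed the brain through dedicated carriers for glucose, amino acids, lactate, lipids, thyroid hormone and iron. Wnt ligands from neighbouring cells act through Fzd4 and beta-catenin to maintain this barrier program, and shear stress acts through Klf2 and Klf4. Microglia enter the brain from the embryonic yolk sac, depend on the receptor Csf1r, survey tissue through Cx3cr1 and P2ry12, supply the C1q subunits of the complement cascade, and clear debris through phagocytic receptors and lysosomes.

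The endothelial libraries held 527913 to 2660212 reads (median 953548) and 1319 to 2588 genes with a read, and the microglial libraries held 768048 to 1956323 reads (median 1175911) and 1808 to 2632 genes. Levels are given as CPM, the usual depth-scaled read count, computed within a cell or, for a whole cell type, from the sum of its cells, 24706768 for endothelial cells and 11391482 for microglia. A count of 0 over the endothelial cells allows a level of up to 0.121 CPM and over the microglia up to 0.263 CPM, taking 3 reads as the limit. The reads carry no molecular identifiers, so these limits and all intervals cover counting error only, and fewer copies in a cell cannot be told apart from poorer capture.

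Of the 23 libraries labelled Endothelial, 21 carried the endothelial program and 2 did not. Summed over 18 endothelial identity markers, the 21 libraries had 19435 to 57873 CPM (median 32989), whereas cell 38 had 87.6 CPM and cell 52 had 5.64 CPM, each under 1% of the median. Cell 38 had 191578 CPM of Ttr, which encodes the thyroxine carrier transthyretin, and 124108 CPM of Enpp2, with Sostdc1, Kl and Folr1 at 4016, 2470 and 1690 CPM. In cell 52, Rgs5 stood at 59166 CPM, the smooth muscle actin gene Acta2 at 5528 CPM, the matrix gene Bgn at 3540 CPM and Notch3 at 750 CPM. Sostdc1, Acta2 and Bgn had no read in the other 21 endothelial libraries or the microglia. These libraries are called by their numbers, values for single cells below are for the 21 libraries, and counts are given with and without cells 38 and 52.

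All 9 microglial libraries carried the microglial program. The sum of 18 microglia identity markers was 35195 to 63465 CPM (median 39617) in them and 0 to 676 CPM in the endothelial libraries. The endothelial sum was 0.511 to 4.99 CPM in 8 microglia and 413 CPM in cell 50, all but a trace of it from Pecam1.

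**Figure D1:**
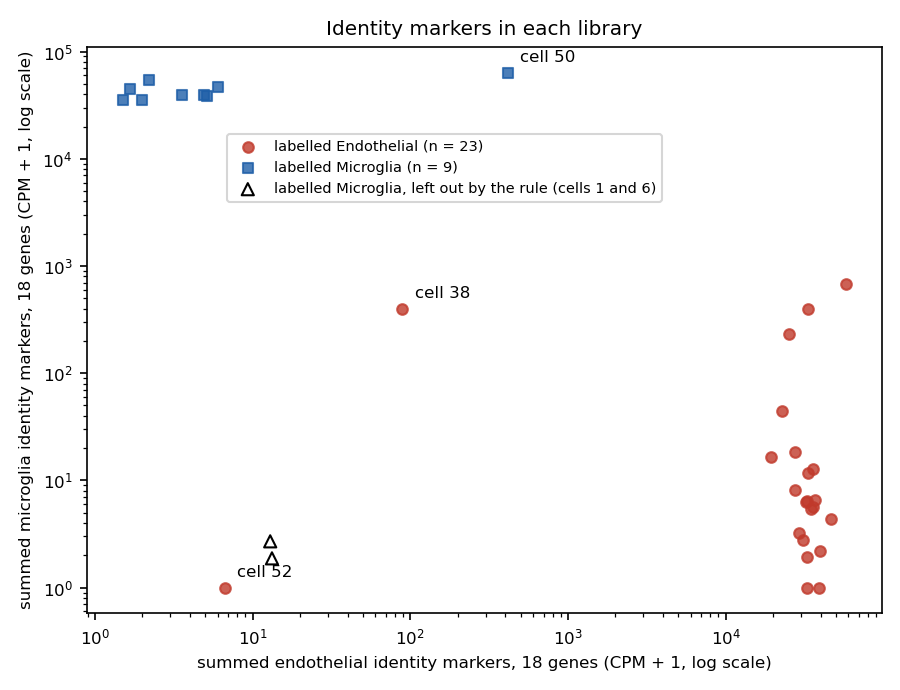
Summed CPM of 18 endothelial (horizontal axis) and 18 microglial (vertical axis) identity markers in each library, with 1 CPM added and both axes logarithmic; each point is 1 cell. The 9 microglia sit at upper left and 21 endothelial libraries at lower right, while cells 38 (87.6 CPM) and 52 (5.64 CPM) lie far to the left of these, and the left-out cells 1 and 6 are low on both axes.

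Genes that reached 10 CPM in either cell type were taken as measured. With 1 CPM added to each side of the ratio, a gene was called higher if the difference was 4-fold or more over all cells and remained so without any single cell. Of 7328 measured genes, 1752 (23.9%) were higher in endothelial cells and 731 (9.98%) in microglia, and the median log2 ratio of all measured genes was 1.29 toward endothelial cells. Without cells 38 and 52, 1615 of 7092 genes (22.8%) were higher in endothelial cells and 795 (11.2%) in microglia, with a median of 1.05. These shares are the background for each list below.

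Most of the calls rested on a few cells. A gene called for endothelial cells reached 10 CPM in a median of 4 of 23 cells, and one called for microglia in a median of 3 of 9. Where a call also had to be read in at least 50% of its cells, after thinning every library to 700000 reads (20 endothelial libraries and all 9 microglia reach that depth), 259 endothelial and 290 microglial genes were left, so that endothelial genes made up 47.2% of these calls in place of 70.6%. Of the 1752 endothelial calls, 872 had no read in any microglial library, and of the 731 microglial calls, 168 had none in the endothelial libraries.

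**Figure D2:**
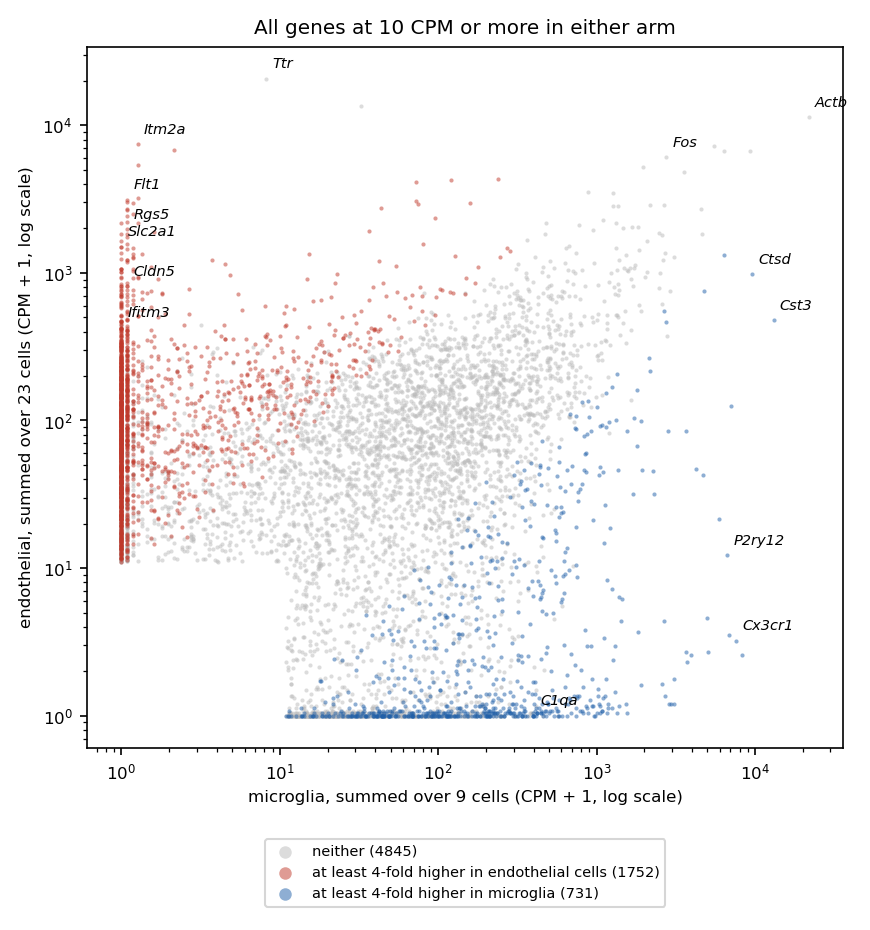
Summed level of each of the 7328 measured genes in 9 microglia (horizontal) and 23 endothelial cells (vertical), CPM plus 1 on logarithmic axes; each point is a gene. The 1752 genes higher in endothelial cells lie to the upper left, 872 of them with 0 reads in microglia, and the 731 higher in microglia lie toward the lower right; Ttr reached its height through cell 38 and Rgs5 mostly through cell 52.

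The endothelial identity genes were near the limit of detection in microglia. All 18 were higher in endothelial cells, with a median log2 ratio of 9.80 (10.63 with genes at 0 reads set to the 3-read limit). Because such genes may have served to label the cells, this checks the labels and is no finding. Flt1 (chr5:147561604-147726011, minus strand, GRCm38), a decoy receptor for VEGF, ran from 1192 to 9790 CPM over the 21 libraries (median 3180) and had 1 read in the 9 microglia. Cldn5 (chr16:18776847-18778262), the main claudin of brain vessels, ran from 0 to 4943 CPM (median 164) and reached 10 CPM in 14 of the 21 libraries. Ly6c1 (chr15:75044018-75048830), a surface protein of vessels, ran from 299.8 to 6100 CPM (median 2464), with 3 reads in microglia. Flt1 and Ly6c1 were thus present in every one of the 21 libraries, with no overlap with the microglia, while Cldn5 was not.

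By the rule that ranks genes read in most cells, the genes furthest toward endothelial cells also included Itm2a, Slco1a4, Sptbn1, Cavin1, Pltp, Ablim1, Cd93, Ptprb, Slco1c1, Plk2, Cxcl12, Tfrc and Ccn1. Itm2a, a membrane protein whose role in vessels is little defined, had the largest log2 ratio, 12.53, at 905 to 24232 CPM (median 6709) in the 21 libraries and 3 reads in microglia. Sptbn1, the spectrin of the membrane skeleton, ran from 253 to 19170.4 CPM (median 8662) against 0 to 6.25 CPM in microglia. Pltp, a phospholipid transfer protein, ran from 15.5 to 9668 CPM (median 2037). These genes did not overlap between the 21 libraries and the microglia, with some exceptions. Cavin1, Ablim1, Cd93, Cxcl12, Tfrc and Ccn1 each had endothelial libraries without a read. For Cxcl12, endothelial cell 24 at 1.03 CPM also stood beside microglial cell 11 at 1.04 CPM. For Plk2 the gap was narrow, at least 1.89 CPM against at most 1.04 CPM. The ranking rule favours such separation, and the share of all called genes without overlap was not counted.

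Most measured receptors for vascular growth factors were called for endothelial cells, and none of the listed ligands was. Of 12 measured genes of VEGF, angiopoietin and apelin signalling, 7 were higher in endothelial cells: the VEGF receptors Flt1, Kdr and Flt4, the co-receptor Nrp1, the angiopoietin receptors Tek and Tie1, and their phosphatase Ptprb. Tek ran from 0 to 7035 CPM (median 503) against 2 reads in microglia, a ratio of 8419 (counting interval 2331 to 69524). Kdr, the main signalling receptor for VEGF, ran from 0 to 3034 CPM (median 47.4) and had no read in microglia, at least 1565-fold lower. Among ligands, Vegfa, Vegfb, Angpt1 and Apln stayed under 10 CPM over each cell type, Vegfc was at 10 CPM or more in 1 of the 21 libraries (cell 33), and Pgf was read in cell 52 alone, at 752 CPM. Angpt2 was read in endothelial cells 27, 28 and 33, at 561, 817 and 812 CPM, and in microglial cell 35, at 288 CPM. Pdgfb, the ligand that recruits pericytes, went the other way, at 156 CPM in endothelial cells and 731 CPM in microglia (log2 ratio −2.22), found in 3 of 9 microglia and 10 of the 21 endothelial libraries, with the ratio between −2.71 and −1.26 when single cells were left out.

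Junction genes were divided between those of vessels and those that both cell types used. Of 14 measured tight and adherens junction genes, 11 were higher in endothelial cells and none in microglia, with or without cells 38 and 52. Besides Cldn5, these included Ocln (0 to 5278 CPM, median 6.58) and Cdh5, the cadherin of endothelial contacts (0 to 564 CPM, median 128), neither with a read in microglia. Tjp1, the scaffold ZO-1, was shared more widely, at 328 CPM in endothelial cells against 43.1 CPM in microglia, where 5 of 9 cells reached 10 CPM. F11r, which encodes the adhesion molecule JAM-A, was level in sum at 224 and 231 CPM, with most endothelial reads from cell 38, at 1150 CPM. Ctnnd1, the p120 catenin, was at 376 and 301 CPM. Most of its reads came from cell 20 (5407 CPM) among endothelial cells and cell 18 (1616 CPM) among microglia.

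The barrier carriers were endothelial almost throughout. Of 23 measured blood-brain barrier transporters, 19 were higher in endothelial cells and none in microglia, with a median log2 ratio of 8.46 (9.61 with genes at 0 reads set to the limit). Each of the 21 libraries held 9 to 19 of the 24 listed genes at 10 CPM or more (median 15), and each microglial library held 0 to 3. The glucose carrier Slc2a1 (chr4:119108711-119137983) ran from 0 to 8267 CPM (median 782) and had no read in microglia, at least 5710-fold lower. Slco1c1, a thyroid hormone carrier, ran from 27.6 to 6434 CPM (median 1966), also with no microglial read, and Slco1a4, an organic anion carrier, from 751 to 18132 CPM (median 4582). Both were at 10 CPM or more in all 21 libraries. Cell 38 too had Slco1c1, at 1221 CPM.

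Other carriers varied far more from cell to cell. The transferrin receptor Tfrc, which takes up iron, ran from 0 to 14110 CPM (median 330) and the efflux pump Abcb1a from 0 to 2895 CPM (median 693), each at 10 CPM or more in 16 of the 21 libraries and without a read in microglia. Slc6a6, the taurine carrier, reached 10 CPM in 20 of the 21 libraries and in 2 of 9 microglia. Slc38a5, an amino acid carrier, and Slc19a3, a thiamine carrier, were at that level in 4 and 10 of the 21 libraries, up to 5590 and 8542 CPM. The 4 transporters not called were Mfsd2a, the lipid carrier that also restrains vesicle traffic (77.0 against 16 CPM, a log2 ratio of 2.20 that ranged from 1.28 to 6.29 as single cells were left out), Slco2b1, the shared heavy chain Slc3a2, and the efflux pump Abcg2 (830 against 515 CPM). Abcg2 was spread over 18 of the 21 endothelial libraries but came from 2 microglia. The lactate carrier Slc16a1 had 51 microglial reads in all, up to 52.1 CPM in a cell, against up to 7244 CPM in endothelial libraries.

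Most genes of the Wnt and beta-catenin barrier pathway were almost absent from microglia, though Ctnnb1 was not. Of 16 measured, 13 were higher in endothelial cells and 13 had no read in one of the cell types, with a median log2 ratio of 5.83 (7.73 at the limit). Lef1 (chr3:131110471-131224356), the transcription factor that pairs with beta-catenin, ran from 0 to 4099 CPM (median 476) and was at 10 CPM or more in 18 of the 21 libraries, with no read in microglia and so at least 3494-fold lower there. Each of the 21 libraries held 3 to 8 of the 19 listed genes at 10 CPM or more (median 5), and some genes were thinly sampled. The co-receptor genes Adgra2 and Reck were at that level in 2 and 4 of the 21 libraries, and the receptor Fzd4 in 1. Tspan12 and Apcdd1 had their highest values in cell 52 (2232 and 2780 CPM) and stayed called without it. Ctnnb1, which encodes beta-catenin itself, was level, at 756 CPM in endothelial cells and 603 CPM in microglia, though 16 of the 21 endothelial libraries and 3 of 9 microglia held it at 10 CPM or more.

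Endothelial transcription factors followed the same division. Of 19 measured, 15 were higher in endothelial cells (16 without cells 38 and 52) and none in microglia. Epas1, the hypoxia factor HIF-2 alpha, ran from 9.47 to 4260 CPM (median 677) with no microglial read, at least 3844-fold lower. Klf4 was high in nearly every endothelial library, at 0 to 6937 CPM (median 3696), and present but lower in microglia, at 0 to 844 CPM (median 125), with a log2 ratio of 4.23. Klf2 showed the same, at 0 to 3040 CPM (median 500) against 0 to 999 CPM (median 0). Erg, an ETS factor, reached 10 CPM in 7 of the 21 libraries and the SOXF factors Sox7, Sox17 and Sox18 in 4, 4 and 2. The ETS factors Ets2 and Elk3 were called for neither (log2 ratios −1.37 and −0.03). Ets1 was in 17 of the 21 endothelial libraries and in 1 microglial one, at 3682 CPM, and its log2 ratio of 2.18 ranged from 1.88 to 10.82 as single cells were left out.

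Caveolae and the matrix were endothelial, with a few microglial exceptions. Of 7 measured genes of caveolae and vesicle traffic, 6 were higher in endothelial cells, led by the coat protein Cavin1 (0 to 11619 CPM, median 1832, 3 reads in microglia), while the dynamin-related Ehd4 was higher in microglia, at 170 against 17 CPM. Caveolin Cav1 was at 10 CPM or more in 7 of the 21 libraries. Of 15 measured basement membrane and matrix genes, 9 were higher in endothelial cells and none in microglia. Fn1, fibronectin, ran from 0 to 12531 CPM (median 172) against 2 microglial reads, and Col4a1, a collagen of the basement membrane, from 0 to 1813 CPM (median 17) against none. Sparc, a collagen-binding matrix protein, was present in all 9 microglia at 643 to 7906 CPM (median 2837) and in endothelial libraries at 0 to 7944 CPM (median 561), with overlapping ranges. Bgn and Lamb1 among the measured genes rested wholly on cells 52 and 38.

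Genes of vascular tone and coagulation went both ways. Of 14 measured, 9 were higher in endothelial cells and 3 in microglia. Plat, tissue plasminogen activator, ran from 0 to 9568 CPM (median 375) with no read in microglia, at least 5198-fold lower. Edn1, the vasoconstrictor endothelin, reached 10 CPM in 7 of the 21 libraries, and Nos3, the nitric oxide synthase of vessels, in 6, up to 2752 and 273 CPM. On the microglial side stood Ptgs1, the cyclooxygenase COX-1, at 142 to 2760 CPM (median 948) in every microglial library against at most 5.44 CPM in an endothelial one. Also among them, Entpd1, which breaks down extracellular ATP, was at 0 to 2318 CPM (median 137) in microglia.

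Notch genes were few and TGF-beta genes were divided by receptor. Of 11 measured Notch and ephrin genes, 5 were higher in endothelial cells and none in microglia. The target gene Hes1 was low but widespread, at 0 to 332 CPM (median 39.4) and at 10 CPM or more in 16 of the 21 libraries, with no read in microglia. Of 15 TGF-beta and BMP genes, 8 were higher in endothelial cells and 3 in microglia. The endothelial ones included the BMP co-receptor Eng (0 to 4338 CPM, median 32.3), its receptor partner Acvrl1 (0 to 1887 CPM, median 6.57) and the targets Id1 and Id3. The microglial ones were the type I receptor Tgfbr1, the signal transducer Smad3, and Nrros, which holds latent TGF-beta at the microglial surface. Tgfbr1 ran from 21.6 to 3636 CPM (median 1464) in microglia and did not pass 54.6 CPM in endothelial libraries, while the type II receptor Tgfbr2 was level, at 110 CPM in endothelial cells and 139 CPM in microglia. Smad3 was at 10 CPM or more in 2 microglia.

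Along the vessel tree, brain endothelial cells change gradually from arterial through capillary to venous, and each stretch has its own genes. Most of the 21 libraries held capillary genes. Of the 9 listed capillary genes, each library held 2 to 9 at 10 CPM or more (median 6), and 20 of 21 held at least 3. No arterial gene was at that level in 13 libraries, and no venous gene in 4. At least 3 arterial genes were found in cells 12, 33, 40 and 49, and at least 3 venous genes in cells 16, 28, 32 and 47. Cell 12 held Efnb2, Gkn3, Hey1, Mgp, Stmn2 and Clu and the fewest capillary genes, 2, and cell 33 held Sema3g, Vegfc, Hey1, Mgp and Unc5b with 3 capillary genes. Cell 47 held 7 venous genes, among them Nr2f2, the venous fate factor, with Vwf, Slc38a5, Icam1 and Il1r1.

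Arterial and venous genes also occurred in the same cell. Of the 8 libraries with any arterial gene at 10 CPM or more, 5 also held a venous one. At least 2 arterial genes were found in 5 libraries and at least 2 venous genes in 9, and cell 55 was in both sets, with Efnb2 and Unc5b beside Slc38a5 and Tmsb10. Spock2, a proteoglycan on the capillary list, was at 10 CPM or more in 20 of the 21 libraries, whereas Vegfc, Hey1 and Icam1 were in 3 libraries or fewer. No label gives the vessel type, and a count of 0 in 1 cell does not show absence, so these are counts of genes per library and not a typing of the cells.

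**Figure D3:**
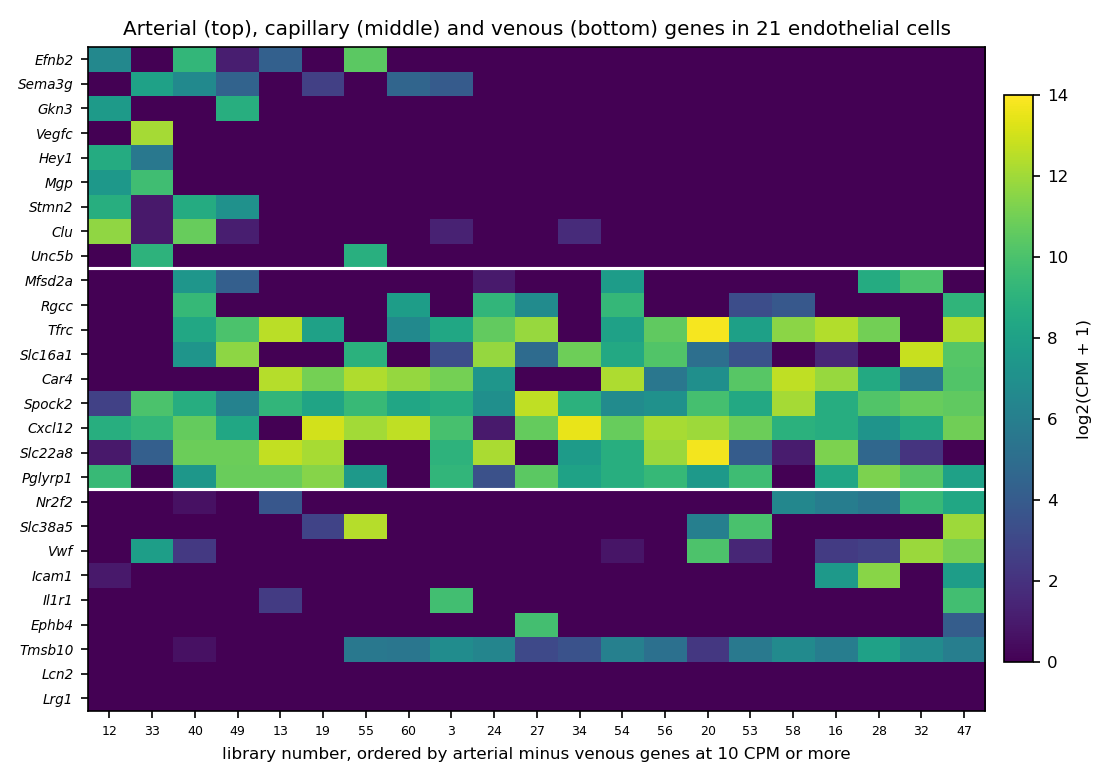
Level of 9 arterial (top), 9 capillary (middle) and 9 venous genes (bottom) as log2(CPM + 1) in 21 endothelial libraries, ordered by the number of arterial minus venous genes at 10 CPM or more. Arterial genes gather in cells 12, 33, 40 and 49 at the left and venous genes in cell 47 at the right, while capillary genes cross nearly the whole row.

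The genes through which vessels and leukocytes meet were divided by partner. Of 11 measured leukocyte adhesion genes, 5 were higher in endothelial cells (Icam2, Pecam1, Cd34, Jam2 and Podxl) and 2 in microglia (the integrin chain Itgb2 and the selectin ligand Selplg). Selplg ran from 0 to 2613 CPM (median 336) in microglia and reached 1.12 CPM at most in an endothelial library. Pecam1 ran from 0 to 5581 CPM (median 157) in endothelial libraries, and all but a trace of its 35.6 CPM in microglia came from cell 50: without that cell the log2 ratio was 9.22 in place of 4.16. Icam1, an inducible adhesion molecule, was level in sum, at 131 CPM in endothelial cells and 107 CPM in microglia, read in 3 of 20 and 5 of 9 thinned libraries, and its log2 ratio of 0.30 ranged from −2.31 to 1.00 as single cells were left out. Vcam1 and the selectins Sele and Selp were at or under 10.6 CPM in both.

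Turning to microglia, all 18 identity genes were higher in microglia, with a median log2 ratio of −9.67, and as with the endothelial list this checks the labels. Cx3cr1 (chr9:119901616-120069879, minus strand), the fractalkine receptor, ran from 4910 to 9883 CPM (median 7453), and P2ry12, the ADP receptor, from 4647 to 8747 CPM (median 7002). The endothelial libraries stayed at or under 24.5 and 106 CPM for these genes. Both were thus in every microglial library, far above every endothelial one. Csf1r spread more, from 400.0 to 14492 CPM (median 2860), and its 41.6 CPM in endothelial cells came almost wholly from cell 19, at 669 CPM: without that cell the log2 ratio moved from −6.79 to −11.60. Tmem119 ran from 0 to 3706 CPM (median 1221), and Sall1, a transcription factor of microglia, was at 10 CPM or more in 3 of 9.

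Ranked among genes read in most cells, the genes furthest toward microglia were Plek, Cd53, Ccl2, Lcp1, Cx3cr1, Cd14, Il1a, C3ar1, C5ar1, Cd86, C1qb, Ccl7, Laptm5 and Ptafr. Plek, a protein kinase C substrate of blood cells, ran from 161 to 25395 CPM (median 6579), with cell 18 apart at the top, and did not pass 19 CPM in an endothelial library. Cd53, a tetraspanin of leukocytes, ran from 294 to 7984 CPM (median 2665) against at most 1.05 CPM. Lcp1, the actin bundler of leukocytes, ran from 4.16 to 14083 CPM (median 1622), with cell 37 apart. The ranges in microglia and in the 21 endothelial libraries overlapped for Il1a (at least 35.1 CPM against at most 56.2 CPM). They also overlapped for genes with a microglial library at 0 (Ccl2, Cd14, C5ar1, Ccl7 and Ptafr), and for none of the other 8 named here. The rule that named these genes favours such separation, and the share of all called genes without overlap was not counted.

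Of 14 measured microglial transcription factors, 9 were higher in microglia and none in endothelial cells. Spi1, which encodes PU.1, the master factor of macrophages, was sparsely captured at 12.6 CPM (exact Poisson interval 10.6 to 14.8), read in 5 of 9 thinned microglial libraries and in no endothelial one. Sall3, Irf5, Maf, Runx1 and Cebpa were also called, Sall3 at 0 to 5566 CPM (median 25) with no endothelial read. Mef2c was in all 9 microglia at 14.3 to 2864 CPM (median 735), but also at up to 4104 CPM in endothelial libraries, and was not called. Runx1 moved from a log2 ratio of −4.42 to −8.80 without cells 38 and 52.

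PU.1 binds the letters GAGGAAGT, searched on both strands in the window from 250 bases before to 50 bases after each start site in RefSeq (GRCm38.p6), which covers 16550 genes of the table. The motif stood in 3.20% of all 32851 promoter windows, in 3.35% of those of genes at 10 CPM or more in either cell type, in 2.05% of those of endothelial-called genes (37 of 1807) and in 4.85% of those of microglia-called genes (37 of 763). It shares its core with the ETS motif CCGGAAGT, which stood in 6.14% and 6.68% of the same windows. The following 120-base stretches, read 5′ to 3′ on the gene's strand, are shown because the motif lies within them in 3 genes described here, with its letters in capitals on the opposite strand (ACTTCCTC). None of the 13 windows of the microglia identity genes held it, whereas 2 of 18 windows of the endothelial identity genes did, those of Eng and Ly6c1. A match or its lack says nothing about binding.
Ctss (chr3:95526696-95526815, plus): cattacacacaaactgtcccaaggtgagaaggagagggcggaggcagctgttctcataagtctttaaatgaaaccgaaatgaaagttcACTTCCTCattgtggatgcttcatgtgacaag
C1qc (chr4:136893045-136893164, minus): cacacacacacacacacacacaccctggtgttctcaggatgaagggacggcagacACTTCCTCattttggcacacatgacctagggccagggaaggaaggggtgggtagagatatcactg
Cd53 (chr3:106790120-106790239, minus): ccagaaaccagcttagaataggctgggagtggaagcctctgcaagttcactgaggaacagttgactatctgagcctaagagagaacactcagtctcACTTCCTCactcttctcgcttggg
In Ctss the motif starts 2 bases before the start site, in C1qc 195 bases before it, and in Cd53 7 bases after it.

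Complement components and their receptors were microglial as a group: 7 of 8 measured genes were higher in microglia and none in endothelial cells. The C1q chains start the classical cascade, and all of them were there. C1qb ran from 245 to 7918 CPM (median 4159), C1qa from 0 to 2223 CPM (median 159) and C1qc from 18.5 to 928 CPM (median 159). C1qa and C1qc had no read in 23 endothelial libraries, at least 3329-fold and 2987-fold lower. Per kb of exon, the microglial levels were 3638 CPM for C1qb, 389 CPM for C1qa and 188 CPM for C1qc. The receptors C3ar1 and C5ar1 ran from 416 to 8336 CPM (median 2173) and from 0 to 11922 CPM (median 1656).

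Of 17 measured phagocytosis and Fc receptor genes, 12 were higher in microglia, and 1 was higher in endothelial cells, Scarb1, a lipoprotein receptor read in 8 of 20 thinned endothelial libraries. Trem2 ran from 44.3 to 4204 CPM (median 598) and its adaptor Tyrobp from 142 to 2947 CPM (median 1178) in microglia. The Fc receptor Fcgr3 and the shared Fc chain Fcer1g were at 10 CPM or more in 8 of 9 microglia each, and Mertk, which takes up dying cells, in 7. Axl, a relative of Mertk, had no read in microglia and was read in cell 52 (3317 CPM), with a trace in cell 38.

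Lysosomal genes leaned to microglia but many were shared with endothelial cells. Their sum was 32069 to 93971 CPM (median 54365) in microglia and 7.07 to 12051 CPM (median 3259) in the 21 endothelial libraries. Of 21 measured genes, 11 were higher in microglia (13 without cells 38 and 52) and none in endothelial cells, with a median log2 ratio of −2.71. Cst3, the protease inhibitor cystatin C, ran from 4808 to 38645 CPM (median 11455) in microglia against 0 to 1026 CPM (median 27.2). Ctsd, an aspartic protease, ran from 2882 to 13523 CPM (median 10593) against 0 to 1389 CPM (median 2.36), and Ctss, a cysteine protease, from 2140 to 11432 CPM (median 4817) against 0 to 245 CPM. For Cst3, Ctsd and Ctss the microglia lay above every one of the 21 endothelial libraries. Other genes of the list overlapped, such as Ctsb, at 98.2 to 12186 CPM in microglia and 6933 CPM in endothelial cell 12. The share of listed or of all called genes without overlap was not counted.

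Cells 38 and 52 altered this list. Cell 38 had 8088 CPM of Ctsd, so that the log2 ratio was −3.29 with all 23 cells and −6.20 without cells 38 and 52. For Cd63, a tetraspanin of late endosomes, the values were −0.31 and −7.75, since it stood at 1664 and 706 CPM in these 2 libraries and at 1.52 CPM at most in the other 21. Other lysosomal genes, among them Ctsh (561 against 507 CPM) and Psap (337 against 389 CPM), were level in sum. For Psap this rested mostly on cell 13, at 7543 CPM, with at most 374 CPM in any other endothelial library. Ctsl, Lamp2 and Npc2 leaned to microglia (log2 ratios −1.91, −2.07 and −1.60) without meeting the call, Lamp2 being at −1.67 with 1 cell left out.

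Many lysosomal genes carry an E-box read by TFEB family factors. Its letters TCACGTGA stood in 0.974% of all promoter windows, in 2.04% of those of genes at 10 CPM or more in either cell type, and in 1.33% and 2.23% of those of endothelial-called and microglia-called genes, so the microglial share was close to that of measured genes. Among 20 windows of the lysosome list it stood in 2, those of Ctsd and Ctsa, both called for microglia. These stretches of 120 bases show it in capitals. The letters are the same on both strands, and Ctsa holds them at 2 places.
Ctsd (chr7:142387863-142387982, minus): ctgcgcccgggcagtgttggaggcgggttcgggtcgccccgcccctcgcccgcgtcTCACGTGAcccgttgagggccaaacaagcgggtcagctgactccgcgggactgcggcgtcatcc
Ctsa (chr2:164833683-164833802, plus): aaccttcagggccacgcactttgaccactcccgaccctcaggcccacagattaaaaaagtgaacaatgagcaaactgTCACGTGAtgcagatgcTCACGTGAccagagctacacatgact

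Most inflammatory mediators measured were abundant in the microglia and uneven between cells, with reads in few endothelial libraries. Of 16 measured chemokines and cytokines, 9 were higher in microglia and 2 in endothelial cells, and the summed level was 3432 to 28963 CPM (median 20672) in microglia. In the 21 endothelial libraries the same sum ran from 2.06 to 12352 CPM (median 1701), overlapping that of the microglia, and Cxcl12, one of the 2 endothelial calls, reached 11658 CPM there. Single endothelial libraries also held other members, cell 40 having Ccl3 at 420 CPM and Ccl4 at 633 CPM and cell 34 Cxcl1 at 694 CPM. In microglia, the interleukin Il1a ran from 35.1 to 15920 CPM (median 5760) and was read in all 9, whereas Il1b was found in 3 of 9, up to 4630 CPM. The chemokines Ccl4 (0 to 7285 CPM, median 4106), Ccl3 (0 to 4322 CPM, median 1901), Ccl2 (0 to 17293 CPM, median 1917) and Ccl7 (0 to 3465 CPM, median 1507) each had at least 1 microglial library at 0. Tnf, Igf1, Cxcl10 and Cx3cl1 stayed under 10 CPM over each cell type.

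The endothelial mediators were of another kind. Cxcl12, a homing chemokine, ran from 0 to 11658 CPM (median 1627) and was at 10 CPM or more in 19 of the 21 libraries, against 1 microglial read, and Igfbp7, which binds insulin-like growth factors, in 6. Il34, a ligand of Csf1r, came from cell 52 alone (4533 CPM), and Csf1, the other ligand, was low in both (30.8 and 34.9 CPM).

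Receptors and sensors added to the microglial side. Of 20 measured chemokine and cytokine receptors, 9 were higher in microglia and 3 in endothelial cells (Ackr3, Il1r1 and Ifnar2). Ackr3 is the scavenging receptor for Cxcl12. Ccrl2, an atypical chemokine receptor, was at 10 CPM or more in 7 of 9 microglia (0 to 6754 CPM, median 969). Of 11 measured purinergic receptors and ion channels, 7 were higher in microglia and none in endothelial cells, P2ry13 reaching every microglial library at 250 to 9570 CPM (median 1209). Of 15 measured Toll-like and inflammasome genes, 7 were higher in microglia and 2 in endothelial cells, Irak4 and Nod1. Ly86, a partner of the LPS-family receptor Cd180, was in all 9 microglia at 52.7 to 2751 CPM (median 1021), and Nlrp3 in 7, while Tlr2 was in 5 and Tlr7 in 3. Tlr4 stayed under 10 CPM over each cell type.

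Genes of antigen presentation by MHC class II were low and uneven. Of 6 measured, 5 were higher in microglia, but the classical chains H2-Aa, H2-Ab1 and H2-Eb1 stayed under 10 CPM over each cell type, and Cd74, the invariant chain, was at 0 to 455 CPM (median 1.70) in microglia. The costimulatory Cd86 was at 103 to 6579 CPM (median 1331) in all 9. Genes linked to disease-associated microglia were largely missing: of 13 listed, 5 were measured and 1, Cd9, was higher in microglia (181 to 4177 CPM, median 1803), and Cst7, Spp1, Itgax, Clec7a, Gpnmb and Lgals3 were under 10 CPM in both.

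Interferon-response genes were endothelial in the adult cortex. Of 15 measured, 12 were higher in endothelial cells (11 without cells 38 and 52) and none in microglia, with a median log2 ratio of 6.61 (8.26 with genes at 0 reads set to the limit). The antiviral membrane protein Ifitm3 ran from 0 to 2518 CPM (median 171) and was read in 15 of 20 thinned endothelial libraries, cell 52 among them. Ifitm2 ran from 0 to 930 CPM (median 41.2) and was read in 14, cells 38 and 52 among them. Neither had a read in microglia. In cell 52 Ifitm2 stood at 1544 CPM. Ifitm3 was thus at least 1615-fold lower in microglia. The transcription factor Irf9 reached 10 CPM in 7 of the 21 libraries, Irf7 in 5, and the effectors Ifit1, Rsad2 and Bst2 in 3 each. The 23 libraries held 1 to 8 of the 18 listed genes at 10 CPM or more (median 4), with 8 in cells 13 and 16. In 8 of 9 microglia Ly6e was the single listed gene at that level. The ninth, cell 50, also had Stat2 and Usp18.

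Ly6e itself was in both, at 137 to 8365 CPM (median 2346) in the 21 endothelial libraries and 38.9 to 2215 CPM (median 1352) in microglia, a log2 ratio of 1.07. Stat2 was seen in 1 microglia and 4 of the 21 libraries and was not called. Members of the Ifitm family are similar in sequence, so reads could be split among them by the counting. The genes for the interferon receptor were both found in endothelial cells, Ifnar1 at 992 against 355 CPM and Ifnar2 at 204 against 5.18 CPM.

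Interferon acts through ISGF3 and IRF factors on repeats spelled GAAA, any 2 bases, GAAA, which stood in 3.44% of all promoter windows, in 2.88% of those of genes at 10 CPM or more in either cell type, and in 2.77% and 1.83% of those of endothelial-called and microglia-called genes. Of the 17 windows of the interferon list, 9 (52.9%) held it, those of Bst2, Ifit1, Ifit3, Ifitm2, Ifitm3, Isg15, Oas1a, Rsad2 and Stat2. For the 5 of these genes that were called for endothelial cells, 120 bases are shown with the repeat in capitals, on the gene's strand in Bst2, Ifitm3 and Ifitm2 and on the opposite one in Ifit1 and Rsad2. Ifit1 and Ifitm3 hold it at 2 places each, and in Bst2 2 matches overlap.
Ifit1 (chr19:34640730-34640849, plus): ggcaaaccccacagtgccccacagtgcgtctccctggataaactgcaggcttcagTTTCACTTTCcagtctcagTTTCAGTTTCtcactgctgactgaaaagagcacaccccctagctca
Rsad2 (chr12:26456508-26456627, minus): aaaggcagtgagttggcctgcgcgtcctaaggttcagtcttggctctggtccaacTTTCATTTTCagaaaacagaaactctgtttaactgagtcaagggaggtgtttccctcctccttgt
Bst2 (chr8:71537538-71537657, minus): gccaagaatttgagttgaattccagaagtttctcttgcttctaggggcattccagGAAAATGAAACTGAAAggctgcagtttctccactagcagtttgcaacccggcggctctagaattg
Ifitm3 (chr7:141010715-141010834, minus): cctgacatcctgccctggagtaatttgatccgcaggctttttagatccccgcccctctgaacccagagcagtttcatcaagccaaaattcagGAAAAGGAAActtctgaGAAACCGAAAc
Ifitm2 (chr7:140955943-140956062, minus): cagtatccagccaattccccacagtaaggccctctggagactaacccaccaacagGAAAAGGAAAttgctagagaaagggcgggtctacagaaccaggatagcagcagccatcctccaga

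Several abundant genes were common to both cell types. Of 16 immediate early and stress genes, 13 were called for neither, with a median log2 ratio of 0.64, and their sum was 11845 to 64530 CPM (median 33147) in the 21 endothelial libraries and 8947 to 61954 CPM (median 21662) in microglia. Egr1 ran from 2.23 to 22192 CPM (median 5902) and from 123 to 19522 CPM (median 4228), and Fos from 183 to 22128 CPM (median 4495) and from 2.70 to 5518 CPM (median 2686). The ranges of both overlapped. The heat-shock genes Hspa1a and Hspa1b, near-identical copies whose reads may be mixed, were higher in endothelial cells (log2 ratios 3.31 and 3.24), and Egr2 in microglia (−4.27).

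Actin genes were shared too. Of 18 actin and cytoskeleton genes, 9 were called for neither, 7 for endothelial cells (5 without cells 38 and 52) and 2 for microglia, the leukocyte genes Lcp1 and Coro1a. Actb, cytoplasmic actin, ran from 2641 to 21938 CPM (median 10291) in endothelial libraries and from 12783 to 31239 CPM (median 20536) in microglia, with overlap and a log2 ratio of −0.95. Vim, an intermediate filament, was on the endothelial side at 693 against 77.6 CPM. Of 8 measured MHC class I genes, 7 were called for neither and H2-K1 for microglia (−2.29, median 18.9 CPM in endothelial libraries and 3021 CPM in microglia). Not called does not mean level here: Nlrc5 was read in cell 27 alone, at 1502 CPM, and Psmb9 in cells 13 and 40, at 39.1 and 565 CPM, with no read in microglia. The most widely read of them, B2m, overlapped: it ran from 11.3 to 2868 CPM and from 1.02 to 2999 CPM.

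**Figure D4:**
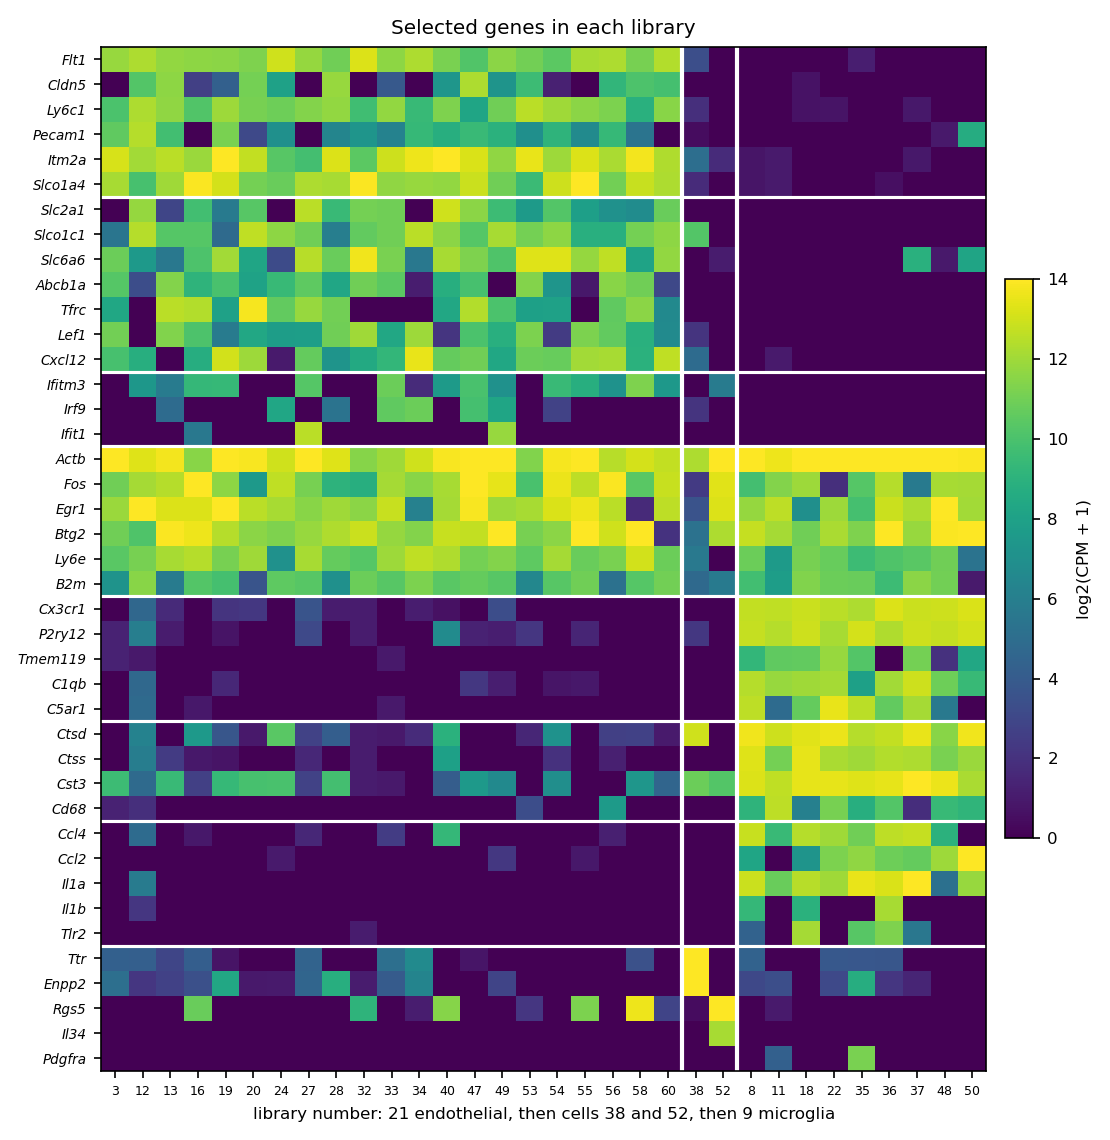
Level of selected genes as log2(CPM + 1) in each library: 21 endothelial cells, then cells 38 and 52, then 9 microglia, with white lines between the groups of cells and of genes. Endothelial and barrier genes fill the left block, interferon genes are scattered in it, Actb to B2m cross both cell types, and microglial, lysosomal and cytokine genes fill the right block; cell 38 stands out for Ttr and Enpp2 and cell 52 for Rgs5 and Il34.

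Markers of other cell types were low in most libraries. Of the lists for B cells and neutrophils no gene was measured, and of 11 border macrophage genes 1 was, Stab1, at 1078 CPM in microglia and 91.6 CPM in endothelial cells. Cell 35, a microglial library, had 4832 CPM of oligodendrocyte precursor genes, the next highest microglia 23.9 CPM. Among the 21 endothelial libraries, cell 20 had 7266 CPM of astrocyte genes and cell 58 had 13020.5 CPM of Rgs5, a gene of mural cells that was also in cells 16, 32, 40 and 55. Mal, which is on the oligodendrocyte list, was read in 13 of 20 thinned endothelial libraries, cell 38 among them, and in no microglial one. Values with and without single cells follow.

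For several named genes 1 library set the size of the ratio. The microglial reads of Cd34 and Jam2 came from cell 35, without which the log2 ratios were 9.73 and 8.27 in place of 4.24 and 4.84, and those of Slc16a1 from cell 11, with 9.37 in place of 7.05. The endothelial reads of Ccl3, Ccl4 and Ctss came mostly from cell 40, without which the ratios were −9.90, −10.60 and −10.38 in place of −6.17, −6.50 and −8.11. Entpd1 moved from −6.14 to −9.47 without cell 32, Mertk from −5.62 to −8.08 without cell 58, and Fcer1g from −6.54 to −9.02 without cell 52. In the other direction, Smad3 moved from −9.07 to −5.13 without cell 18, Usp18 from 6.61 to 3.84 without cell 47, Ifnar2 from 5.05 to 2.97 without cell 60, and Bst2 from 5.72 to 3.19 without cell 13. All of these genes stayed past 4-fold, as the call requires. Hspa1a and Hspa1b moved to 6.70 without cell 48 and to 7.4 without cell 50.

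The same contrast at postnatal day 12 (P12), in visual cortex of the same genotype, held 7 endothelial cells and 18 microglia. There 860 of 7479 measured genes (11.5%) were higher in endothelial cells and 1656 (22.1%) in microglia, so the balance of calls lay the other way, with fewer endothelial and more microglial cells than in the adult. Of the 1752 adult endothelial calls, 435 (24.8%) were also called at P12, 50.6% of the P12 endothelial calls, and 146 were called for the opposite side. Of the 731 adult microglial calls, 385 (52.7%) were called again, 23.2% of the P12 microglial calls, and 10 were opposite. Among listed genes, 98 of 152 adult endothelial calls and 90 of 98 adult microglial calls recurred, and 7 and 0 were called for the opposite side. These counts include the identity genes, which check the labels. Of them, 17 of 18 endothelial and 18 of 18 microglial ones were called at P12.

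Several groups named for the cell types had like medians at both ages: 9.80 and 10.18 for endothelial identity, 8.46 and 7.16 for transporters, −9.67 and −9.43 for microglial identity, and −9.20 and −9.36 for complement. Others lay further toward microglia at P12. The medians went from −4.27 in the adult to −7.47 at P12 for microglial transcription factors. They went from −4.08 to −6.28 for Toll-like and inflammasome sensors, and from −2.71 to −4.13 for the lysosome. The median of all measured genes also moved toward microglia, from 1.29 in the adult to −0.38 at P12. The moves of single lists are to be read beside it. The interferon list had a median of 6.61 in the adult and 0.05 at P12, or 2.96 at P12 without 4 microglia that held 10000 CPM or more of border macrophage genes. With all P12 cells, none of 11 measured genes was higher in endothelial cells and 3 were higher in microglia. Counted per cell, the 7 P12 endothelial cells nevertheless held 2 to 5 of the 18 listed genes at 10 CPM or more (median 3) and the 18 P12 microglia 0 to 8 (median 2). Among the 3 were Oasl2 (0.110 CPM in P12 endothelial cells and 92.5 CPM in P12 microglia) and Bst2 (0 and 46.2 CPM), both adult endothelial calls. The medians of immediate early genes were 0.64 and −2.30, with Atf3 at 27.4 CPM in P12 endothelial cells and 3357 CPM in P12 microglia. The interleukin Il1a stood at 583 CPM in P12 microglia and 6832 CPM in the adult. Age, animal and preparation cannot be told apart in this design, and the difference between the ages was not tested. Without the 4 P12 microglia with border macrophage genes, 1033 and 1361 genes were called.

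**Figure D5:**
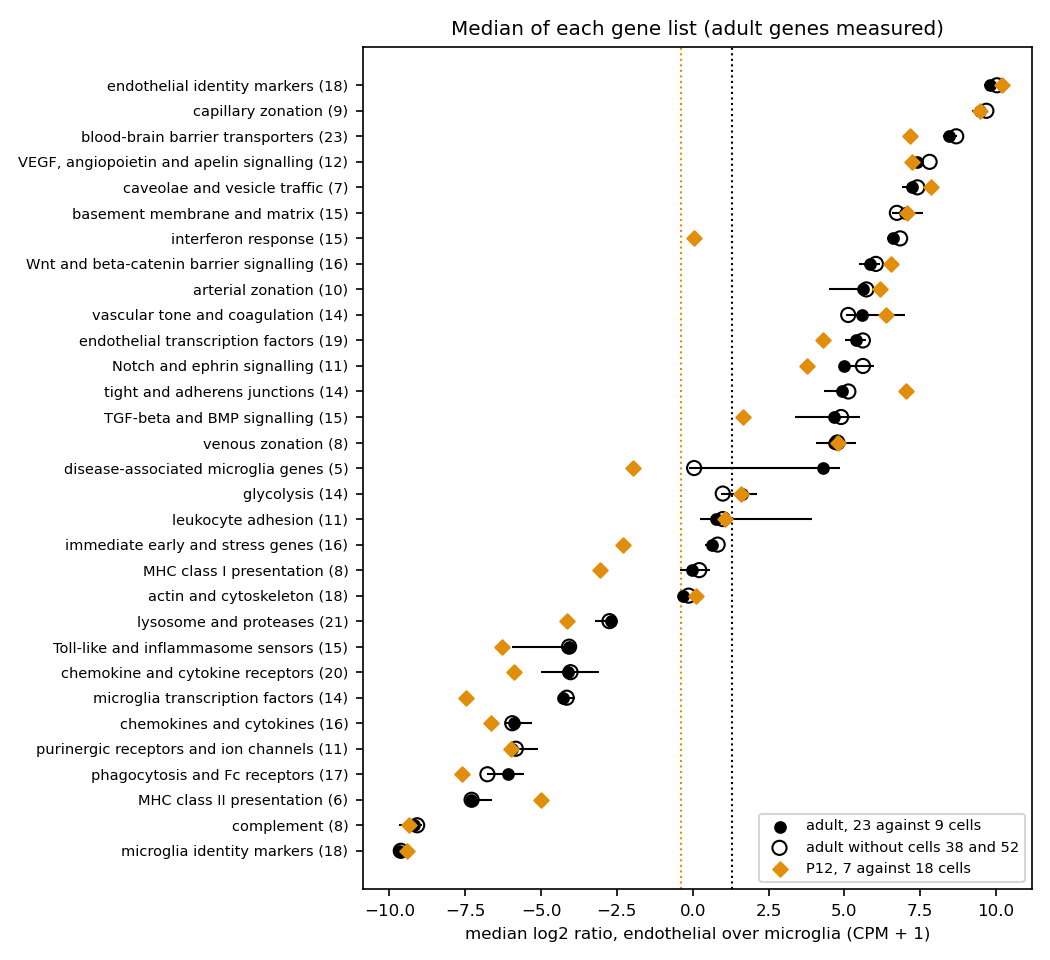
Median log2 ratio, endothelial over microglia, of each gene list with at least 5 measured genes (number of adult genes in parentheses); filled points are 23 against 9 adult cells, bars the range when single cells are left out, open circles the adult without cells 38 and 52, and diamonds P12. Dotted lines mark the medians of all measured genes, 1.29 in the adult and −0.38 at P12; the interferon list was at 6.61 and 0.05 (2.96 at P12 without the 4 microglia with border macrophage genes, not drawn), and the disease-associated list moves with cell 52.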

How the data were processed

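Single cells of mouse visual cortex were read by RNA-seq. The authors deposited a table of read counts per gene and cell (22074 genes, 333 cells) with no molecular identifiers. Per the submitters' processing notes, reads were aligned to mm10 with STAR and counted with HTSeq 0.6.0, and whether counting used strand is not given in the sources used here. Reads of near-identical genes (Hspa1a and Hspa1b, the Ifitm family) and of overlapping genes may therefore be mixed.

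Cell types were taken from the submitters' labels. Counts were summed over the cells of each type and scaled to CPM. The log2 ratio added 1 CPM to each side, which understates the change of low genes. A gene was measured at 10 CPM or more in either type. It was called at 4-fold or more with all cells and with each cell left out in turn. Shares of cells used libraries thinned to 700000 reads, which left out 3 endothelial cells and kept cells 38 and 52. No doublet caller was run on 32 cells, and libraries with markers of other cells are named in the text. No test between the cell types was made, because each is 1 sample and the labels may rest on these counts. Intervals are exact Poisson or, for a ratio, exact binomial (95%).

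The members, the 42 gene lists and the motifs were chosen with earlier results of these data known. Of 633 list entries, 9 were not found in the table. The text names list members and, in each direction, the 15 genes with the largest ratio among those at 50 CPM or more, read in at least 50% of cells and in at least 30 percentage points more cells than in the other type, leaving out ribosomal and unnamed genes. A few genes that these rules would name are not reported here, though the list counts include them. Genes picked out of cells 38 and 52 and single-cell values were chosen after their values were seen. Coordinates are GENCODE M21 (GRCm38) and promoters RefSeq (GRCm38.p6). The alternatives were other scalings (TMM, edgeR 4.0.16, and median of ratios), minimums, added CPM, folds, thinning depths and left-out cells. The script for the calls was tested on simulated data. Python 3.11.15, numpy 2.4.6, pandas 2.3.3, scipy 1.17.1, matplotlib 3.10.9 and R 4.3.3 were used.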

Additional observations from a re-analysis of the deposited data

Results flagged for a closer look

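Dixon's ratio was taken for 33 sets of values over the 9 microglia or the 7 P12 endothelial cells. In 8 of them the highest library stood apart from the others. Chance meets this rule in about 1 in 20 sets only where values follow a normal distribution. Single-cell levels here were skewed, and most microglia had no read of the neuron or oligodendrocyte precursor markers. That rate therefore does not hold, and whether 8 of 33 is more than chance would give cannot be told. Cell 50 stood apart for the summed endothelial identity markers (413 CPM, the next microglia 4.99 CPM) and for Ccl2 (17293 CPM, next 3953 CPM). Cell 35 stood apart for oligodendrocyte precursor markers (4832 CPM, next 23.9 CPM) and for neuron markers (72.9 CPM, next 3.12 CPM), and cell 48 for oligodendrocyte markers (336 CPM, next 150 CPM). Cell 18 had 25395 CPM of Plek (next 9439 CPM) and cell 37 had 14083 CPM of Lcp1 (next 3941 CPM). Among P12 endothelial cells, cell 9 had 1141 CPM of microglia identity markers (next 470.3 CPM).

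Cells 1 and 6, labelled Microglia and left out of the comparison, held signal that the other adult cells lacked. Their B cell marker sums were 6703 and 6693 CPM, and the highest of the other 60 adult cells had 1.29 CPM. Their MHC class II sums were 55213 and 57095 CPM, against at most 9143 CPM in the others.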

How the results depend on the processing

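Beside leaving out single cells, 13 alternatives were run for the number of genes called for endothelial cells (1752) and microglia (731). The counts differed by more than 1.5 times under 3 of them: 860 and 411 with 10 CPM added in place of 1 CPM, 3342 and 1858 without the condition on left-out cells, and 259 and 290 where a gene also had to be read in at least 50% of the cells of its type. The share of calls that were endothelial was 70.6%, 67.7%, 64.3% and 47.2% for the main setting and these 3. The last 2, and leaving out cells 38 and 52, were chosen after seeing the data. Leaving out single cells gave 1664 to 1853 endothelial and 643 to 765 microglial calls. Median-of-ratios scaling moved the median log2 ratio of all measured genes from 1.29 to 1.14 and TMM moved it to 1.35. Of 33 lists with a median of at least 2 either way, 30 kept its sign under every alternative run. The sign turned for the disease-associated microglia genes without cell 52 (−0.12, with a range over left-out cells of −0.12 to 4.85). It also turned for neuron markers with no minimum (−0.064). For oligodendrocyte precursor markers it turned without cell 35 (4.40, range −5.19 to 4.40). Cell 35 was the 1 cell flagged by the rule used for markers of another class, set at 25% of the class median. That rule did not flag cell 52, which held 69307 CPM of mural cell markers, so it did not catch every such library. Without 4 P12 microglia that carried macrophage genes, 489 endothelial and 360 microglial adult calls recurred at P12, against 435 and 385. No paired analysis was possible because the labels give no replicate numbers that tie cells of the groups together. Low genes are limited by depth: a gene with no read in 1 arm has only a lower bound on its ratio.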

Other observations

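Glycolysis genes had no common direction. Of 14 measured, 5 were higher in endothelial cells (4 without cells 38 and 52) and 1 in microglia, with a median log2 ratio of 1.61 beside 1.29 for all measured genes. The microglial one was Hk2, a hexokinase that starts glycolysis, at 1005 CPM in microglia.

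Cxcl12 and its scavenging receptor Ackr3 were both on the endothelial side, Ackr3 at 10 CPM or more in 4 of the 21 libraries and in cell 52 (544 CPM).

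Mal, a lipid raft protein best known from myelin, was at 1063 CPM in endothelial cells with no read in microglia, at least 4036-fold lower. It was at 10 CPM or more in 11 of the 21 endothelial libraries and at 160 CPM in cell 38. At P12 it stood at 56 CPM in endothelial cells.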
